A study of Homo sapiens with 8 samples.

Results

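The genes described here are 9 inhibitors and brakes of mTORC1, the growth-promoting protein kinase complex: DDIT4, DDIT4L, SESN1, SESN2, SESN3, TSC1, TSC2, DEPTOR and TXNIP. Their rows were taken from the gene table by symbol, and all 9 were found among 29004 rows, 26863 of them with a gene name. The set was put together with the difference between the groups in view, so every value below is a description of that difference and none of it is a test. The group labelled LATS2 OE held 4 samples of AB8/13 cells, an immortalized human podocyte line, in which LATS2 wild-type was induced from a lentiviral, doxycycline-inducible construct with 125 ng/mL doxycycline for 8 h. The untreated group held 4 samples of the same stable line without induction. Cells of both groups were cultured at 33 °C, carried the construct and came from 1 line. Doxycycline was added to every LATS2 OE sample and to no untreated sample, so the drug and the induced LATS2 cannot be told apart. The comparison addresses which genes are transcribed differently soon after activation of the Hippo pathway, in which the kinases LATS1 and LATS2 phosphorylate the transcriptional coactivator YAP and keep it out of the nucleus.

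mTORC1 sits on the lysosome and drives protein synthesis and growth when amino acids, growth factors and energy are sufficient. Growth factors act through TSC1 and TSC2, a complex that switches off the small GTPase RHEB, the direct activator of mTORC1, and amino acids act through the Rag GTPases, which recruit mTORC1 to the lysosome. DDIT4, also called REDD1, and its relative DDIT4L act on the first branch and promote TSC activity, while the sestrins act on the second branch by binding GATOR2, an activator of Rag signaling. DEPTOR binds mTOR itself, and TXNIP is an arrestin-like protein that binds thioredoxin and limits glucose uptake. Podocytes are postmitotic cells of the kidney filter that enlarge when neighbors are lost, and mTORC1 activity is known to matter for that growth and for podocyte injury.

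The table held 1 pooled FPKM value per group (fragments scaled to the exon length of a gene and to the sequencing depth), so no value of a single sample, no SD and no replicate check was possible, and the depth behind a value is unknown. In most cells of at least 1 the decimal point had been lost. The points were put back so that both values of a row fitted its deposited log2 column, which left 1 ratio of the groups per row but the level of both open by a factor of 10 or 100. The power of 10 in a ratio thus rests on that column, and its digits on the FPKM values. These levels are printed as the lowest possible one ("at least"). Rows below 1 FPKM were intact. A difference is called here when the pooled value of one group is at least 25% above that of the other, named the 25% limit below. LATS2 itself had at least 53.1 FPKM in LATS2 OE cells and at least 2.64 FPKM in untreated cells, a 20.1-fold difference and the highest log2 ratio (4.33) of 11911 named rows of at least 1 FPKM in both groups. The paralog LATS1 stood at a log2 ratio of 0.06. The middle of the distribution was close to 0: the median log2 ratio of the 11911 rows was -0.0040, the quartiles were -0.07 and 0.07, and 21 housekeeping genes had a median of 0.0024 with none past the 25% limit (ACTB, a further one, was listed at 0 in both groups). Of 12 podocyte markers 5 were at least 1 FPKM in both groups, among them SYNPO and PODXL, whereas NPHS1 and PTPRO were below 0.01 FPKM in both. None of 5 endothelial and none of 5 tubular markers reached 1 FPKM in both groups, against 5 of 5 parietal epithelial markers, 2 of 5 mesangial and stromal markers and 1 of 5 leukocyte markers. The 5 parietal epithelial markers did not move together, with log2 ratios of 0.40 for PAX8, 0.13 for PAX2, 0.13 for KRT8, 0.03 for KRT18 and -0.51 for CLDN1. The part of other cell states in the members' differences was not tested, and in pooled RNA fewer cells of a type and less RNA per cell cannot be told apart.

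DDIT4, a small stress-induced protein that releases TSC2 for the inhibition of mTORC1, differed most among the 9 genes. It had at least 11.0 FPKM in LATS2 OE cells and at least 3.08 FPKM in untreated cells, with 1 higher level possible for both (110.0 and 30.8 FPKM). The ratio was 3.57-fold, a log2 ratio of 1.84. Only 6 of the 11911 named rows of at least 1 FPKM in both groups had a higher log2 ratio, so DDIT4 ranked 7. The gene is a compact locus on the plus strand of chromosome 10 (hg19, 74033677 to 74035797, 2121 bases), and no other row shared that locus. The rows next to it were level between the groups, with log2 ratios of 0.02 for ANAPC16, a subunit of the anaphase-promoting complex, and 0.01 for DNAJB12, a chaperone. Next above DDIT4 by log2 ratio were the row of MIR210 with its host MIR210HG (1.97), the row of the host transcript of MIRLET7B and its neighbors (2.38) and MIR3653 (2.45). Next below were ABCC10, a drug exporter (1.74), MIR6807 (1.68) and SNORA68 (1.67). The likeness here is only the log2 ratio over the 2 pooled values of each row.

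The bases before the start of the members whose values differed are shown because several regulators known to act on these genes bind short motifs there. The sequences are the 250 bases before the RefSeq start site (GRCh38.p14 tables, placed in hg19 by an exact match), written 5′ to 3′ on the gene's strand, and capitals mark every match to one of 9 motifs searched on both strands. These were the E-box CACGTG, the hypoxia response core (ACGTG or GCGTG), the CCAAT box (CCAAT), the TEAD core GGAATG, AP-1 TGANTCA, CRE TGACGTCA, the ATF4 composite TGATGNAA, the glucocorticoid motif AGAACA and the FOXO core TGTTTAC. In the DDIT4 sequence (chr10:74033432-74033681) the capitals mark 3 hypoxia response cores and 2 CCAAT boxes on the opposite strand.
DDIT4: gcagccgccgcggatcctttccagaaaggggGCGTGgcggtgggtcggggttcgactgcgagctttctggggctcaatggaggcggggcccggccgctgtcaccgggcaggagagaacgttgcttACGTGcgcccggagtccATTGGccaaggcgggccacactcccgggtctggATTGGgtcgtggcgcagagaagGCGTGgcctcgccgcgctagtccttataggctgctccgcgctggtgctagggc

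The hypoxia response cores of DDIT4 began at positions -219, -125 and -53, counted backwards from the base before the start site, and the CCAAT boxes began at -108 and -75. A window of this length often holds such letters: 43.2% of all 35114 promoter windows had at least 1 hypoxia response core and 32% had a CCAAT box. HIF1A is the oxygen-sensing factor that binds hypoxia response elements and a known activator of DDIT4. It had at least 6.69 FPKM in LATS2 OE cells and at least 4.33 FPKM in untreated cells (log2 ratio 0.63). EPAS1, the second oxygen-sensing factor, was lower (log2 ratio -0.34). Whether either has a part in the DDIT4 difference was not tested. No E-box, CRE, ATF4 composite, glucocorticoid motif or TEAD core with these letters stood in the DDIT4 window, which says nothing of sites elsewhere or of the factors.

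**Figure D1:**
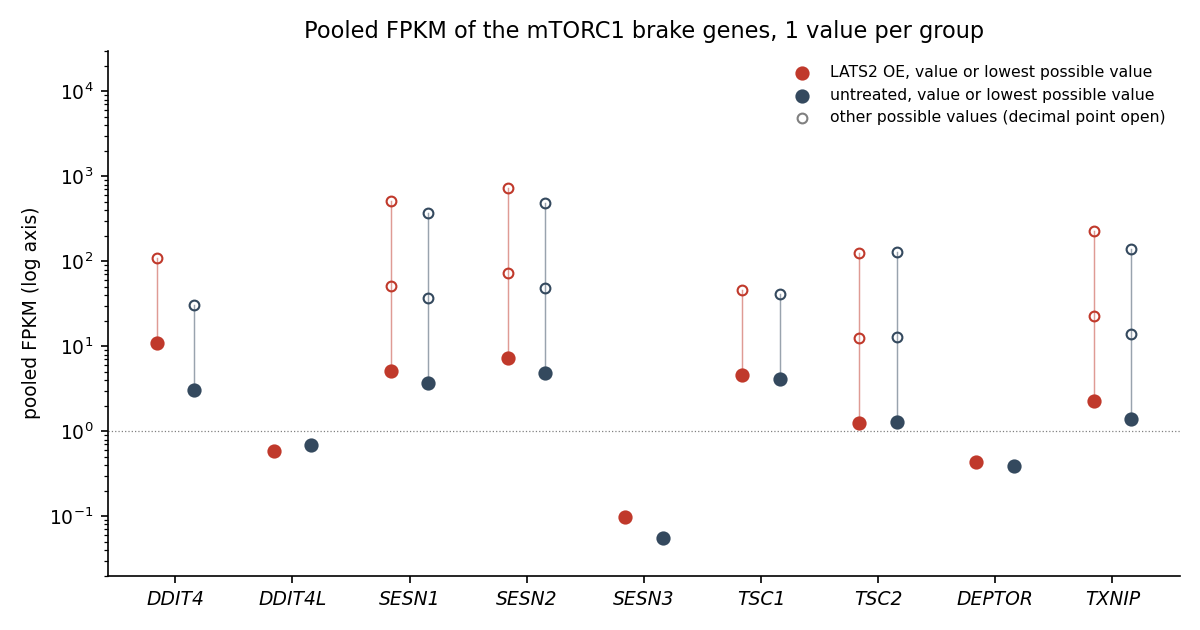
Pooled FPKM of the 9 genes on a log axis, LATS2 OE in red left of untreated in dark blue, 1 value per group and therefore no error bar. Filled points are the value or the lowest possible value and open points the other levels the digits allow. The group values of DDIT4 lie far apart (at least 11.0 and at least 3.08 FPKM), those of TSC2 almost level, and DDIT4L, SESN3 and DEPTOR lie below 1 FPKM in both groups.

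DDIT4L, the relative of DDIT4 also called REDD2, did not go with it. Its values were 0.579 FPKM in LATS2 OE cells and 0.698 FPKM in untreated cells, intact as deposited, a log2 ratio of -0.27 (1.21-fold lower in LATS2 OE, under the 25% limit). It was far the lower of the pair per length: DDIT4 was at least 19.0 times as high as DDIT4L in LATS2 OE cells and at least 4.41 times as high in untreated cells. The locus (chromosome 4, 101107027 to 101136662, hg19) was given to 2 rows, the other being LOC101929353, listed at 0 in LATS2 OE cells and 0.0134 FPKM in untreated cells. DDIT4L lies on the minus strand and overlaps the long noncoding RNA genes DDIT4L-AS1 and H2AZ1-DT on the other strand. As the library kit does not mark strand, their reads cannot be told apart from its own where they overlap.

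Both sestrins that were expressed at 1 FPKM or more were higher in LATS2 OE cells. SESN2, the leucine-binding sestrin that holds back GATOR2, had at least 7.31 FPKM in LATS2 OE cells and at least 4.90 FPKM in untreated cells. The ratio was 1.49-fold (log2 ratio 0.58), and SESN2 ranked 149 of 11911. Its locus on chromosome 1 (28585963 to 28609002, hg19, plus strand) was its own, and the rows next to it, ATPIF1 and MED18, had log2 ratios of 0.08 and 0.11. SESN1, a stress-induced relative of SESN2, had at least 5.16 FPKM in LATS2 OE cells and at least 3.72 FPKM in untreated cells. The ratio was 1.38-fold (log2 ratio 0.47), rank 233, and the neighboring rows ARMC2 and CEP57L1 had log2 ratios of -0.07 and 0.09. SESN1 spans chromosome 6 from 109307640 to 109415708 on the minus strand and overlaps an unnamed long noncoding RNA gene on the other strand by 644 bases. It was the called member of at least 1 FPKM nearest to the 25% limit, and TSC1, at 1.13-fold, was the nearest one outside it.

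SESN3 was close to absent. It had 0.0976 FPKM in LATS2 OE cells and 0.0556 FPKM in untreated cells, a 1.76-fold ratio (log2 ratio 0.81) between 2 very low values. Of the 6323 named rows above 0 and below 1 FPKM in both groups 34.2% were higher and 20.5% lower in LATS2 OE cells by the 25% limit or more, and 85.6% of these rows had a lower log2 ratio than SESN3, which ranked 912. With 1 FPKM added to both values the log2 ratio of SESN3 was 0.06. Per length, SESN2 was at least 75.0 times as high as SESN3 in LATS2 OE cells and at least 88.2 times as high in untreated cells, whereas SESN1 was at least 52.8 times as high in LATS2 OE cells and at least 67.0 times as high in untreated cells. SESN3 (chromosome 11, 94898677 to 94967568, minus strand) also overlaps the antisense long noncoding RNA gene LNCRNA-IUR over its whole annotated gene, so its reads cannot be told apart from those of that gene. The row of LOC100129203 shared the locus, with 0.0097 FPKM in LATS2 OE cells and 0.0117 FPKM in untreated cells.

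The windows of SESN2 (chr1:28585779-28586028) and of the second RefSeq start site of SESN1 (chr6:109330756-109331005) are shown for comparison with DDIT4. SESN2 holds 2 CCAAT boxes on the opposite strand, and this SESN1 window holds a TEAD core on the opposite strand, a CCAAT box on the opposite strand and a hypoxia response core, in this order.
SESN2: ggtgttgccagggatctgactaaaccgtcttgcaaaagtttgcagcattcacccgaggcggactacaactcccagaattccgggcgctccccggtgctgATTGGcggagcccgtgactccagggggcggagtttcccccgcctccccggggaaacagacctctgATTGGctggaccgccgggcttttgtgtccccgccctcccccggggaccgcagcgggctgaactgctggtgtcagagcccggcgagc
SESN1 start 2: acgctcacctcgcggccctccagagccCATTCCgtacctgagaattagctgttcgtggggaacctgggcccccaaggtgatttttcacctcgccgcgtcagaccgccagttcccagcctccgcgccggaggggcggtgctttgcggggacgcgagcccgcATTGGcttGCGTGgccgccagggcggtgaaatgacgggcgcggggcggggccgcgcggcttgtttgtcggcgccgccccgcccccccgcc

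The CCAAT boxes of SESN2 began at -151 and -86, and in the SESN1 window the TEAD core began at -223, the CCAAT box at -90 and the hypoxia response core at -82. A TEAD core, the letters bound by the DNA-binding partners of YAP, was present in 11.9% of all windows. The third SESN1 start site had a CCAAT box at -75. The first SESN1 start site and SESN3 had no match.

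TXNIP was the second most different member at 1 FPKM or more. It had at least 2.24 FPKM in LATS2 OE cells and at least 1.39 FPKM in untreated cells, with 2 higher levels possible for both. The ratio was 1.62-fold (log2 ratio 0.69), rank 103 of 11911. Its row carries a locus of 2320934 bases on chromosome 1 (144146811 to 146467744, hg19) that 30 named rows share, each with its own FPKM values, and the gene itself lies at 145438490 to 145442635 on the plus strand. The other 17 rows of that locus with at least 1 FPKM in both groups had log2 ratios between -0.17 and 0.15, with a median of -0.0074, and none was past the 25% limit. Of the low rows of that locus, below 1 FPKM in both groups, ANKRD35 (log2 ratio 0.61) and CD160 (0.42) were past it, both higher in LATS2 OE cells.

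Among the 12 windows of the members, the one before the first TXNIP start site (chr1:145438240-145438489) and that of DDIT4 had the most matches, 5 each. Matches per window were not counted over all genes, so no background for this number can be given. The capitals mark, in order, a hypoxia response core, a CCAAT box, a FOXO core and a CCAAT box and a further hypoxia response core.
TXNIP: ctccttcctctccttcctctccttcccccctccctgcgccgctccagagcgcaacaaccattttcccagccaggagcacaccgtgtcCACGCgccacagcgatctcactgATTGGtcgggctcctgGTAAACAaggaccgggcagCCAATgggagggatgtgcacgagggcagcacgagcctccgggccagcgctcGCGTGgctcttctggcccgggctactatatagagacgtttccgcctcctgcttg

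The hypoxia response cores began at -163 and -54, the CCAAT boxes at -140 and -105 and the FOXO core at -124, a motif present in 2.98% of all windows. The second TXNIP start site held 1 hypoxia response core at -162. TXNIP is known as a gene induced by glucose through MLXIP and MLX. MLXIP had 11.2 FPKM in LATS2 OE cells and 9.90 FPKM in untreated cells (log2 ratio 0.18). MLX had a log2 ratio of -0.18. Only exact matches to the listed motifs were marked, so the window may hold sites of MLXIP and MLX without capitals. Whether either factor has a part in the TXNIP difference was not tested.

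**Figure D2:**
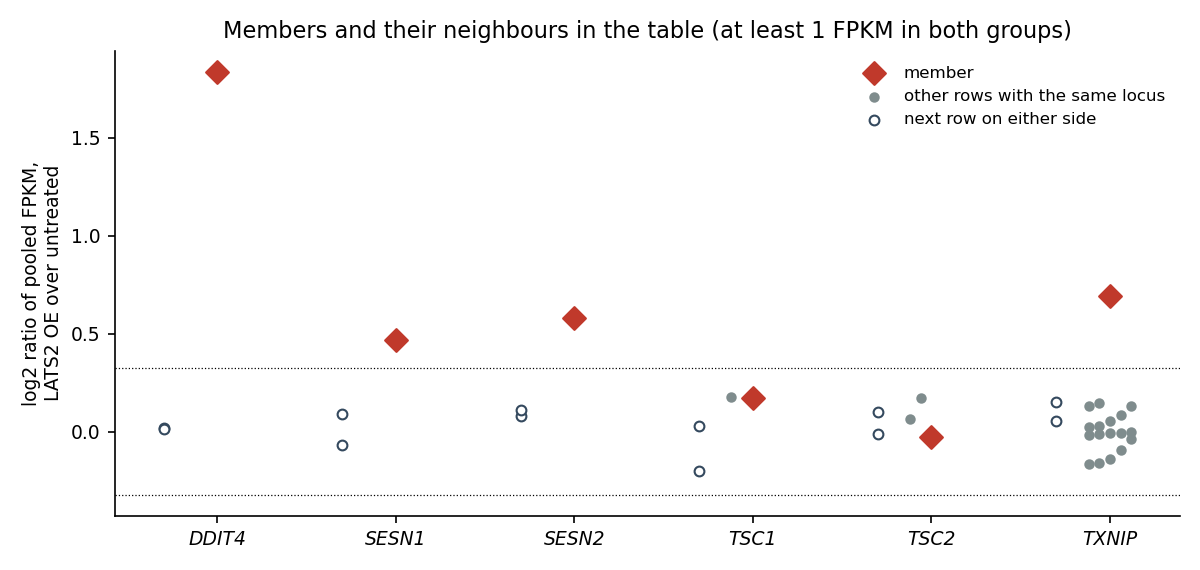
Log2 ratio of pooled FPKM (LATS2 OE over untreated) for the 6 members of at least 1 FPKM in both groups (diamonds), the other rows given the same locus (grey points) and the next row on either side (open circles). Dotted lines mark the 25% limit. The 17 other rows at the locus of TXNIP lie between -0.17 and 0.15, whereas TXNIP lies at 0.69. TSC1 lies among the rows around it, and TSC2 lies at -0.03, just below the rows around it.

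The TSC complex itself was almost level. TSC1, the stabilizing subunit, had at least 4.64 FPKM in LATS2 OE cells and at least 4.12 FPKM in untreated cells (1.13-fold, log2 ratio 0.17), and 89.2% of the 11911 rows had a lower ratio. Its locus on chromosome 9 (135600965 to 135820211, hg19) was shared with C9orf9 and AK8, whose log2 ratios were 0.17 and 0.18, and TSC1 overlaps GFI1B on the other strand by 2875 bases. TSC2, the subunit that acts on RHEB, had at least 1.251 FPKM in LATS2 OE cells and at least 1.277 FPKM in untreated cells (log2 ratio -0.03). TSC2 shares its locus on chromosome 16 (2097990 to 2186130, hg19) with 3 rows and overlaps PKD1 on the other strand by 784 bases, and PKD1 had a log2 ratio of 0.06. The TSC2 window (chr16:2097736-2097985) is printed as that of a member whose values were level.
TSC2: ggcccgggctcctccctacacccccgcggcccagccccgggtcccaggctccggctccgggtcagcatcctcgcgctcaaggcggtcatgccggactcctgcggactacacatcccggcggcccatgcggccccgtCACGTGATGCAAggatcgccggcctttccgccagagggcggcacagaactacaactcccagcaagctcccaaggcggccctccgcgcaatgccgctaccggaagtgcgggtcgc

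Its capitals mark 1 run made of an E-box at -114, which itself contains a hypoxia response core on each strand, and an overlapping ATF4 composite at -110. An E-box was found in 6.35% of all windows and an ATF4 composite in 3.14%. The second TSC2 start site, TSC1 and DDIT4L had no match. Over the 12 windows of the 8 members with a RefSeq entry, CCAAT boxes stood in 5 windows of 4 genes (DDIT4, SESN1, SESN2 and TXNIP) and hypoxia response cores in 5 windows of 4 genes (DDIT4, SESN1, TSC2 and TXNIP), while AP-1, CRE and glucocorticoid motifs stood in none. Over all 35114 windows, 32% had a CCAAT box and 43.2% a hypoxia response core, and nothing is read from the counts over the members. Matched letters are a description and not a binding site. The background shares were 6.57% for AP-1, 1.65% for CRE and 12.4% for the glucocorticoid motif.

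**Figure D3:**
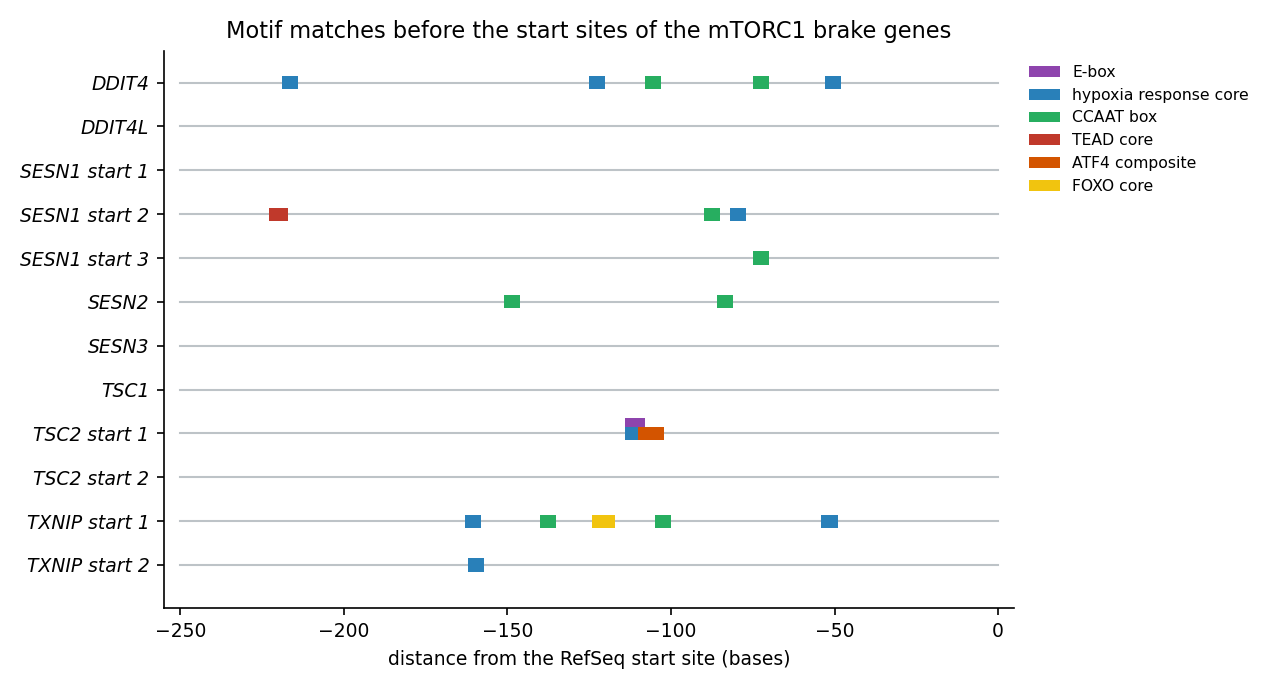
Positions of the motif matches in the 250 bases before each RefSeq start site, by distance from that site in bases. Each bar spans 1 match, and grey lines are the windows searched. DDIT4 and the first TXNIP start site hold 5 matches each, and 5 of the 12 windows hold none.

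DEPTOR, which binds and inhibits mTOR directly, was below 1 FPKM in both groups, at 0.440 FPKM in LATS2 OE cells and 0.389 FPKM in untreated cells. The log2 ratio was 0.18 (1.13-fold), and 55.6% of the 6323 low rows had a lower one. Its gene overlaps DEPTOR-AS1 on the other strand by 772 bases. Per length, TSC1 was at least 10.6 times as high as DEPTOR in each group.

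Counted together, 4 of the 6 members of at least 1 FPKM in both groups were higher in LATS2 OE cells by the 25% limit or more (DDIT4, TXNIP, SESN2 and SESN1), none was lower, and TSC1 and TSC2 were within the limit. Over the 11911 named rows of the same level 4.14% were higher and 4.68% lower. At 1.5-fold 2 of the 6 were higher, DDIT4 and TXNIP, with 1.23% of all rows. At 2-fold only DDIT4 remained, with 0.327% of all rows. Of the 3 members below 1 FPKM, SESN3 was higher and none was lower. Over the 6323 named rows of that low level 34.2% were higher and 20.5% lower. As the genes were chosen on this same contrast, nothing is read from these counts. The median log2 ratio was 0.52 over the 6 members and 0.18 over the 3 low ones. The order of the log2 ratios in the higher class was DDIT4, TXNIP, SESN2, SESN1, TSC1 and TSC2, and without values of single samples it is unknown which neighbors in this order differ beyond their spread.

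**Figure D4:**
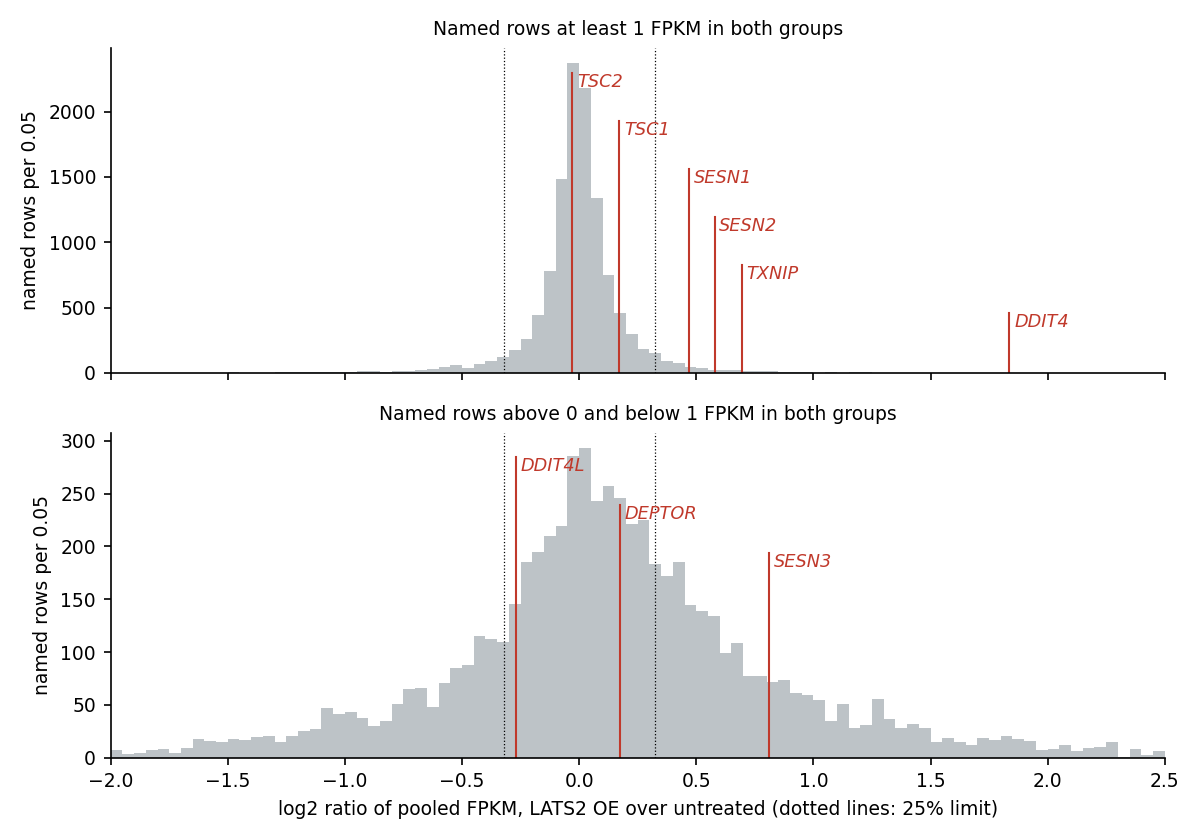
Distribution of the log2 ratio of pooled FPKM (LATS2 OE over untreated) over named rows in steps of 0.05, with the 9 genes marked by red lines and the 25% limit by dotted lines. The upper panel holds the 11911 rows that reach 1 FPKM in each group and is narrow (91.2% within the 25% limit). The lower panel holds the 6323 rows below 1 FPKM and is wide (45.3% within the 25% limit). SESN3 lies inside the wide distribution of its class, and DDIT4 in the upper tail of its own, at rank 7 from the top. A few rows lie beyond the axis, LATS2 among them.

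Other genes of the pathway were taken from lists written with earlier results of these data known. Among 38 genes of the mTOR complexes, RHEB and its partners, the Rag GTPases with Ragulator, and GATOR1, GATOR2 and KICSTOR, 1 was higher by the 25% limit or more and none was lower, where 4.14% of all rows were higher and 4.68% lower. MTOR (log2 ratio 0.0080), its partner RPTOR (-0.03) and RHEB (-0.05, with 110.8 FPKM in LATS2 OE cells and 114.4 FPKM in untreated cells) stood at the center. The gene past the limit was PRR5L, an mTORC2-associated protein, with at least 5.80 FPKM in LATS2 OE cells and at least 3.34 FPKM in untreated cells (log2 ratio 0.79). CASTOR2, a relative of the arginine sensor CASTOR1, had 1.35 FPKM in LATS2 OE cells and 0.799 FPKM in untreated cells (log2 ratio 0.76), and is not in the counts because it was below 1 FPKM in untreated cells.

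Upstream of TSC, 2 of 15 genes of the growth factor input were lower in LATS2 OE cells and 1 was higher. Over all rows of this level 4.68% were lower and 4.14% higher. IRS2, an adaptor of the insulin receptor, had at least 1.39 FPKM in LATS2 OE cells and at least 3.64 FPKM in untreated cells (log2 ratio -1.39). IRS1, the related adaptor, had at least 4.44 FPKM in LATS2 OE cells and at least 9.18 FPKM in untreated cells (log2 ratio -1.05). PIK3IP1, a membrane inhibitor of PI3K, was higher (log2 ratio 0.77), and AKT1, the kinase that phosphorylates TSC2, was level (-0.04). Among 12 genes of AMPK and LKB1, the energy sensor that activates TSC2, PRKAG2 alone was past the limit (log2 ratio -0.37), and the LKB1 gene STK11 was level (0.02).

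Downstream, 3 of 16 genes of mTORC1 substrates and of factors further down the pathway were past the limit. TFEB, the lysosomal transcription factor that mTORC1 keeps in the cytoplasm, had at least 6.31 FPKM in LATS2 OE cells and at least 3.28 FPKM in untreated cells (log2 ratio 0.95). LPIN1, a phosphatidate phosphatase, was higher (0.40), and MITF, a relative of TFEB, was lower (-0.56). The autophagy kinase gene ULK1 had a log2 ratio of 0.26, under the limit, and RPS6KB1 and EIF4EBP1, the best known substrates, had -0.05 and 0.05. Over the 7 lists from the mTOR complexes to the substrates and energy sensors, 4 of 81 genes were higher (4.94%) and 4 were lower (4.94%), with 4.14% higher and 4.68% lower over all rows. The tally includes RNA only and says nothing of phosphorylation or kinase activity.

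Among 9 arrestin-domain relatives of TXNIP and genes of the thioredoxin system 2 were higher and none was lower, again beside 4.14% and 4.68% over all rows. ARRDC3, an arrestin-like adaptor of ubiquitin ligases, had at least 2.43 FPKM in LATS2 OE cells and at least 1.39 FPKM in untreated cells (log2 ratio 0.80), above the 0.69 of TXNIP, and ARRDC2 was just past the limit (0.33). ARRDC4, the nearest relative of TXNIP, had 0.890 FPKM in LATS2 OE cells and 0.989 FPKM in untreated cells (log2 ratio -0.15). TXN, the thioredoxin that TXNIP binds, was level (0.02), and TXNRD1, which reduces it, had -0.18.

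Of 16 regulators known to act on members 2 were higher and 2 were lower, with 4.14% higher and 4.68% lower over all rows. The higher ones were HIF1A, given above, and CEBPB (0.54), a leucine zipper factor of the stress response. The lower ones were WWTR1, the gene of the YAP relative TAZ, with at least 8.90 FPKM in LATS2 OE cells and at least 11.8 FPKM in untreated cells (log2 ratio -0.40), and EPAS1, the second oxygen-sensing factor (-0.34). NEDD4L, a ubiquitin ligase, lay just inside the limit (-0.32). ATF4 (0.02), the glucocorticoid receptor NR3C1 (0.0091), YAP1 (0.08), FOXO1 (0.11) and FOXO3 (-0.15) were within it.

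Target lists of these factors are given beside the 4.14% higher and 4.68% lower over all rows of this level. Among 13 ATF4 targets 4 were higher and 1 was lower, with ATF3 (log2 ratio 0.65), itself a stress-induced factor, and NUPR1 (0.46) higher and VLDLR, a lipoprotein receptor (-0.51), lower. Among 11 hypoxia targets 4 were higher and none was lower, led by PFKFB4, a regulator of glycolysis (0.75), NDRG1 (0.38) and KDM3A (0.35).

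The glucocorticoid and FOXO lists held genes past the limit in both directions, where 4.14% of all rows were higher and 4.68% lower. Among 8 glucocorticoid targets TSC22D3 (0.66) and KLF9 (0.63) were higher, SGK1, a kinase related to AKT (-1.22), and the phosphatase gene DUSP1 (-0.46) were lower, and FKBP5 was within the limit (0.08). Among 11 FOXO targets 3 were higher and 4 were lower. BCL2L11, which encodes a pro-apoptotic protein (0.81), was the highest, and CITED2, a transcriptional coregulator, was lower, with 146.7 FPKM in LATS2 OE cells and 351.7 FPKM in untreated cells (-1.26). IRS2 belongs to this list as well. The median log2 ratio was 0.10 for ATF4 targets, 0.09 for hypoxia targets, 0.0024 for glucocorticoid targets and 0.04 for FOXO targets, against -0.0040 over all rows of this level.

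**Figure D5:**
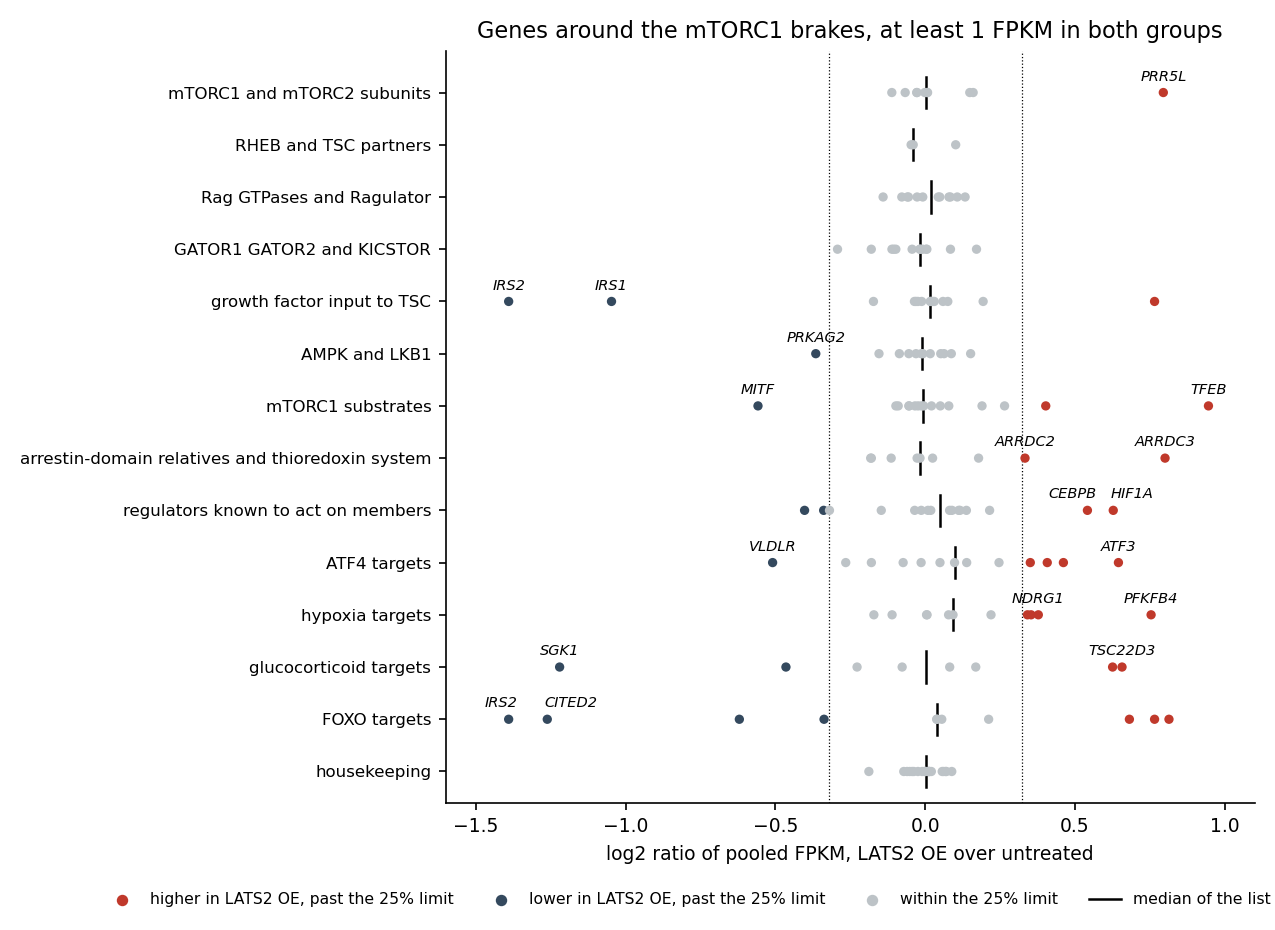
Log2 ratio of pooled FPKM (LATS2 OE over untreated) for each gene of 14 lists, 1 point per gene of at least 1 FPKM in both groups, with the median of a list as a black line and the 25% limit as dotted lines. The lists of the Rag GTPases, of GATOR1, GATOR2 and KICSTOR, of RHEB and its partners and of housekeeping genes hold no gene past the limit, and up to 2 such genes of each other list are named.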

How the data were processed

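AB8/13 podocytes were profiled by RNA sequencing in 4 LATS2 OE and 4 untreated samples. Whether the 4 samples of a group were separate cultures is not stated. Per the labels and the methods, the authors made libraries of poly(A) RNA, trimmed the reads (Trimmomatic 0.33), mapped them with TopHat on hg19 and quantified genes with Cufflinks. The library kit does not mark strand. Versions of both tools and the gene models were not given in the sources used here. As deposited, the authors gave 1 gene table with a pooled FPKM value per group. It also holds the authors' own comparison (log2 fold change, test statistic, p-value, q-value and a significance call), and none of these is reported. The deposited log2 score served only to place decimal points.

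Of 24844 FPKM cells of at least 1 with a point, 98.2% had exactly 3 decimals and none had more, so the point was taken to be a digit-grouping mark. Every point position that fitted the deposited log2 score within 0.002 was kept. Of 20636 rows above 0 in both groups, 20626 had exactly 1 ratio, and 8878 had 1, 2160 had 2 and 9588 had 3 possible levels. On simulated pairs, damaged by this same rule and read with their own log2 value, the ratio was recovered for 2000 of 2000. This checks the code only, and cannot show that the deposited values were damaged in this way. The members and lists were chosen with earlier results of these data known. Ratios are LATS2 OE over untreated, with no pseudocount, and counts cover named rows that reach 1 FPKM in each group and use a fold of 1.25 (25%), with no test. Named are the members, LATS2, LATS1, up to 3 genes per list with the largest absolute log2 ratio, list genes needed to say which relatives did not move, and the 3 rows next to DDIT4 on either side by ratio. CASTOR2, NEDD4L, DUSP1, EPAS1, MLX, ANKRD35, CD160 and the LOC rows were named after their values were seen. Of 178 list entries 177 were found, and some genes, 1 list and 1 motif are not reported here. Promoter windows came from RefSeq tables, of which 8 of 9 members had entries. Alternatives were other folds, pseudocounts, centering and a filter on low values. Scripts ran in Python 3.11.15 and figures in matplotlib 3.10.9.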

Additional observations from a re-analysis of the deposited data

How the results depend on the processing

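The 9 log2 ratios were recomputed under 42 alternatives in all (pseudocounts of 0.1 and 1 FPKM, and centering on the median of named rows or of housekeeping genes). The setting with 1 FPKM added at the highest possible level was chosen after seeing the data. In 41 of 42 the direction and the side of the 25% limit were kept. The exception was SESN3, whose log2 ratio of 0.81 was 0.34 with 0.1 FPKM added and 0.06 with 1 FPKM added. Most of these settings could not change a call, so the tally says little of robustness. Centering took off medians of only -0.0040 and 0.0024, and no member lay that near to the limit. A pseudocount can only bring a ratio nearer to 0, so it could move only members past the limit. With a limit of 1.5-fold, 2 members were higher instead of 4, and with 2-fold 1 was. Over all named rows the 493 higher and 557 lower rows at the 25% limit were 146 and 205 at 1.5-fold and 39 and 64 at 2-fold. With every row above 0 in both groups counted, 2742 were higher and 1909 lower. Widening the tolerance of the decimal point step to 0.02 left 20626 rows with 1 ratio. No paired analysis was possible because the table holds 1 pooled value per group. For the same reason no replicate could be left out, and no error, depth or floor can be given for any value.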
